A study of Mus musculus with 8 samples.

Results

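Expression of 10 genes that encode or regulate the small GTPases Ral, Rap and Ras was followed: the Ral exchange factors Rgl1, Rgl2 and Ralgds, the Ral proteins Rala and Ralb, the Rap proteins Rap1a and Rap1b, the Rap inactivator Rap1gap2, and the exchange factors Rasgrp2 and Rasgrp4. They were chosen by gene symbol. A gene was taken where the platform annotation gave a probe set exactly 1 symbol and that symbol was on the list, and the probe set of highest mean on the 8 arrays stood for the gene. Of the 10 genes, 9 had such a probe set, and all 9 were among the 12250 genes tested out of 17097 with a symbol. Rap1b was not analysed here. Despite the name exchange regulators, the group also holds 4 GTPases and 1 GTPase-activating protein.

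Expression was measured on Affymetrix mouse arrays in acute myeloid leukaemia (AML) cell lines, 4 arrays per group, labelled Trib1 hi or Trib1 null. The arrays labelled Trib1 hi come from a line expressing Hoxa9 and Trib1, and those labelled Trib1 null from a line expressing Hoxa9. The leukaemia cells of both arose in a mouse with both copies of Trib1 knocked out, and both were grown untreated in IMDM with 10% serum and 5 ng/ml of the cytokine IL-3. The labels give no age, vector or clone for either line, nor whether arrays of 1 group were separate cultures, so p-values reflect spread among arrays that may be technical replicates. With 1 line a group, the line and its Trib1 state cannot be told apart.

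Small GTPases switch between a GTP-bound active and a GDP-bound inactive state. Exchange factors load GTP and GTPase-activating proteins (GAPs) speed its hydrolysis. Proteins of the RalGDS family bind active Ras and pass its signal on to RalA and RalB, which act on vesicle tethering through the exocyst complex and on survival signalling. Rap1 switches integrins to their adhesive state in blood cells. RasGRP proteins answer diacylglycerol, calcium or both, to an extent that differs among them, and so tie receptor signalling in blood cells to Ras or Rap.

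The difference between the groups varied with brightness. The background control GC25 read 12.2, 11.4, 379 and 15.1 in the arrays labelled Trib1 hi, and 334, 149, 264 and 207 in the arrays labelled Trib1 null. Levels below 500 could therefore not be compared between arrays, and folds were taken after setting signals below 500 to 500. Among controls whose group means exceeded 500, the added transcripts dap and bioC were lower in the r2 series. Log2 differences (Trib1 hi minus Trib1 null) were -0.50, -0.84 and -0.54 for the 3 dap probe sets and -0.34 and -0.33 for bioC. The other probe sets of these transcripts gave -0.52, -1.26 and -0.68 for dap, but -0.02 and 0.20 for bioC. Of the bioC controls only the second differed in direction between the series. The probe sets that gave -0.84, -0.33 and -1.26 read below 500 on some arrays labelled Trib1 hi. In the r2 series, the brightest controls, bioD and cre, were higher by 0.01 to 0.06. Tested genes had a median log2 difference of -1.25 at a mean signal from 250 to below 500, -0.35 from 500 to below 1000 and -0.08 from 1000 to below 2000. The dap probe sets at 500 or above on every array had group means from 1153 to 2963. Their differences of -0.68 to -0.50 lay below the last of these medians, so dap did not follow brightness as the tested genes did. The brighter Trib1 probe set read 7.13, 7.13, 122 and 5.92 in the arrays labelled Trib1 hi, against 304, 223, 212 and 206 in the arrays labelled Trib1 null. These lie below 500, where arrays could not be compared, and all but that of Trib1 null 2 lie below the GC25 reading of their array. As read they go against the label, so each direction below is that of the labels. Whether labels were exchanged cannot be told from these values, and an exchange would turn every direction given here. The Hoxa9 probe set, of the gene both lines are said to express, read 14.3, 14.3, 391 and 10.0 against 969, 1075, 1031 and 1020. Whether these probe sets detect an introduced copy is not stated. Of 11 myeloid markers measured, 5 were higher (Mpo, Cd34, Elane, Cebpa and Kit) and 3 lower (Itgam, Csf3r and Spi1). Over all tested genes 11.1% were higher and 19.7% lower. Mpo averaged 5201 against 2.92, Cd34 3429 against 25.1 and Elane 4452 against 802. Itgam averaged 1660 against 5122 and Csf3r 415 against 890. Ptprc (CD45) was not called, at 12540 ± 1998 against 13070 ± 1303 (SD, n = 4 each). The part of these marker differences in the results below was not tested. Lymphocyte markers read below 500 on every array for all 5 measured.

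Of the 9 measured genes, 5 were lower in the arrays labelled Trib1 hi at an adjusted p under 0.05 (limma across all tested genes, Benjamini-Hochberg): Rap1gap2, Rasgrp2, Rgl2, Ralb and Rala. These 5 did not overlap between the groups. Over all tested genes 19.7% were called lower, and 39.3% of the 2715 with a mean signal from 500 to below 2000, the range that holds these 5 genes. No gene of the group was called higher (0 by limma, with 1, Rgl1, at an unadjusted p under 0.05), against 11.1% of all tested genes and 19.6% of those with a mean signal from 500 to below 2000. The split of calls over all genes, 1363 higher and 2409 lower, was 3357 and 3352 after quantile normalization, 175 and 2212 with equal medians and 2178 and 2684 after cyclic loess. The array medians lie far below 500, at 68.3 on Trib1 hi 3 and 3.71 to 9.56 on the other arrays, so making them equal scales arrays by dim signals. Rgl1 was higher on all 4 arrays labelled Trib1 hi without overlap. Over all tested genes 15.8% were lower and 13.5% higher without overlap. The median log2 difference of the 9 genes was -0.32, against 0.04 over all 12250 tested and -0.19 over those with a mean signal from 500 to below 2000. In whole cultures, fewer cells of a type and less RNA per cell cannot be told apart.

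**Figure D1:**
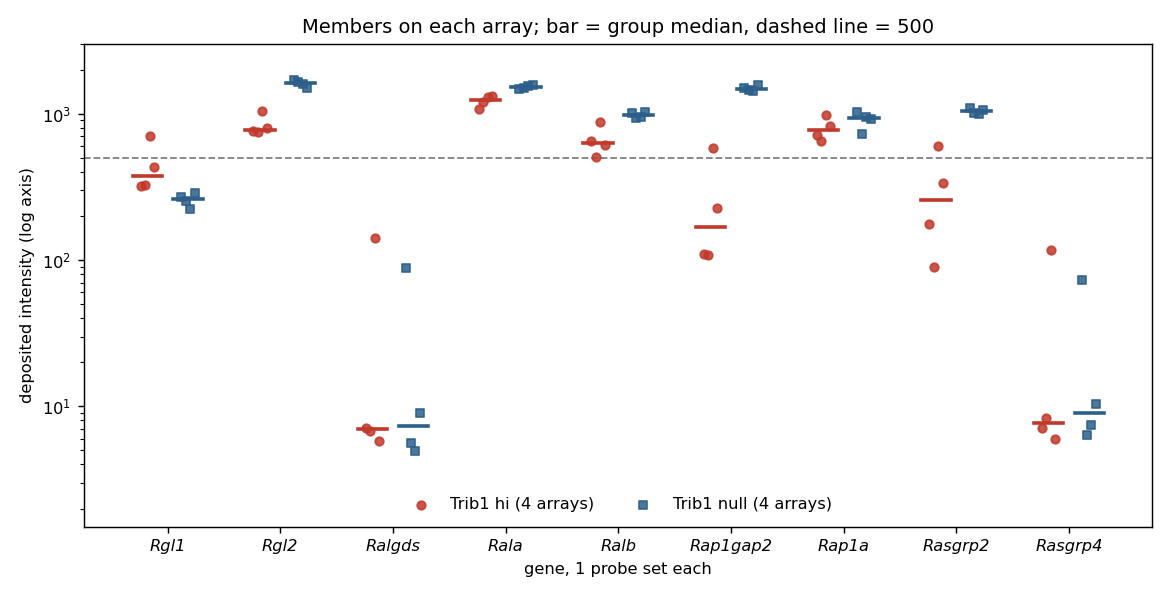
Deposited intensity (log axis) of the 9 measured genes on each array labelled Trib1 hi (circles, left, 4 arrays) or Trib1 null (squares, right, 4 arrays). Short bars are group medians and the dashed line is 500, below which arrays could not be compared. Rap1gap2 and Rasgrp2 lie furthest apart, Rap1a overlaps, and Ralgds and Rasgrp4 lie near the bottom of the scale.

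The bases before the starts of Rgl2, Rgl1, Rap1gap2 and Rasgrp2 are shown because the results turn on these 4 genes. They are the 250 bases before a RefSeq start in GRCm38.p6, 5′ to 3′, with 8 of the 10 genes in the promoter table. Capitals mark matches, on both strands, to the motifs searched: an ETS site CCGGAAG, a PU.1 site GAGGAAG, a C/EBP site TTGCNNAA, a HOX-PBX site TGATTNAT, a GC box GGGCGG, a cyclic AMP element TGACGTCA and an E-box CACGTG. The sources do not state which start a probe set reports.
Rgl2, chr17:33929644-33929893, plus strand: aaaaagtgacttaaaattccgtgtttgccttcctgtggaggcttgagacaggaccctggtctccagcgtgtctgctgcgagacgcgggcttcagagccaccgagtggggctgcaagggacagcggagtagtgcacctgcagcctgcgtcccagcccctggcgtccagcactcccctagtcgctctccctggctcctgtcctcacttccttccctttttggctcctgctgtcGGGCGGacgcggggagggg
Rgl1, the first of its listed starts, chr1:152766306-152766555, minus strand: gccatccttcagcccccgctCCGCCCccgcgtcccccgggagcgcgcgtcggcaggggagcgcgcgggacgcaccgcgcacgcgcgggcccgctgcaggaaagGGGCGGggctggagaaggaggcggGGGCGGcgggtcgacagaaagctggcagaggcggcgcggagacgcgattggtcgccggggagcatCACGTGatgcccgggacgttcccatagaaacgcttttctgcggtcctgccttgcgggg
Rap1gap2, the first of its listed starts, chr11:74610916-74611165, minus strand: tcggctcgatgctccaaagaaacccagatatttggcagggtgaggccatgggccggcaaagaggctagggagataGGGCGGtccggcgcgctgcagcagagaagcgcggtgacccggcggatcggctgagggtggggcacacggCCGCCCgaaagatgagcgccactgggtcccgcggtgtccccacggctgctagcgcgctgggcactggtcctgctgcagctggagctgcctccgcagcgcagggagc
Rasgrp2, the first of its listed starts, chr19:6399625-6399874, plus strand: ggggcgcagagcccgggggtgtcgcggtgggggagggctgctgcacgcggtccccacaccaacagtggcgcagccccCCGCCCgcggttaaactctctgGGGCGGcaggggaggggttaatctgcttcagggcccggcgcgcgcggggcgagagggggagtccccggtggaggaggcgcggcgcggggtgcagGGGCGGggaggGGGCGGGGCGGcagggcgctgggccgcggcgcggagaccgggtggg
Rasgrp2, the second of its listed starts, chr19:6401455-6401704, plus strand: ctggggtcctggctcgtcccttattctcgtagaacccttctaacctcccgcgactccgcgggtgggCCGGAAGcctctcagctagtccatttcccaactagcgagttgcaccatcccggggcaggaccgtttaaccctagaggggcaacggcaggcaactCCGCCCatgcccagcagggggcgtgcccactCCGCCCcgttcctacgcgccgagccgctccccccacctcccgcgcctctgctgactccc

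Each of the 5 windows shown holds a GC box, as do 13 of the 14 windows of the listed genes, against 32.7% of 32851 promoter windows of that length. Rgl1 has an E-box 58 to 53 bases before its first start, a motif in 6.02% of windows and also present in a window of Ralb and of Ralgds. The second Rasgrp2 window holds an ETS site, 184 to 178 bases before the start, as does that of Rala, and 6.91% of all windows. No PU.1 or HOX-PBX letters were found in the 14 windows, against 10.6% and 2.82% of all windows. C/EBP letters were in 2 of the 14 windows, against 9.56% of all windows: before the third listed start of Rap1gap2, not shown, as TTTAGCAA 160 to 153 bases before it, and before the second of Ralgds. The cyclic AMP element was in 1, that of Rap1b, against 1.55%. These matches describe the letters and say nothing of a factor.

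Rgl2, an exchange factor of the RalGDS family that loads Ral with GTP, read 758, 751, 1037 and 798 in the arrays labelled Trib1 hi, against 1702, 1660, 1609 and 1503 in the arrays labelled Trib1 null. The groups lay well apart, with Trib1 hi 3 above the other arrays of its group. The means were 836 ± 135 and 1618 ± 85.8 (SD, n = 4 each), 1.94-fold lower in the arrays labelled Trib1 hi. The log2 difference was -0.96 ± 0.12 (SE), with an adjusted p of 1.49e-07 (limma) and an exact two-sided permutation p of 0.0286, the smallest that 70 assignments of the arrays can give. The difference was -0.80 after quantile normalization and -0.71 after cyclic loess (adjusted p = 0.000103). The call ended with equal medians, where the difference was -1.82 with a larger SE of 0.95 (adjusted p = 0.239). The dap controls of both series differed by -1.26 to -0.50. Those at 500 or above on every array differed by -0.68 to -0.50, less than Rgl2, and their part in the result was not tested. Tested genes with a mean signal from 1000 to below 2000, the range of Rgl2, had a median of -0.08.

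Rgl2 lies on chromosome 17, where 284 of 633 tested genes (44.9%) were lower and 18 (2.84%) higher. Over all tested genes 19.7% were lower and 11.1% higher, and on the other chromosomes of the measured genes 15% to 21.8% were lower. Of the 5 tested genes on each side of it, 5 of 10 were lower (6 at an unadjusted p under 0.05) and 0 higher (0 at an unadjusted p under 0.05). The next tested gene before it, Tapbp, which loads peptides onto MHC class I, read 6111 against 12760 and was 2.09-fold lower. Daxx, a histone chaperone, was 1.92-fold lower, and Zbtb22, a zinc finger protein, 1.26-fold. Cd320, the transcobalamin receptor, was at least 1.44-fold lower. On the other side Pfdn6, a prefoldin subunit, averaged 4767 against 4967 and Wdr46, a nucleolar protein, 3586 against 3235 (adjusted p = 0.707 and 0.367, limma). The part of the chromosome in the Rgl2 difference was not tested.

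Rgl1, a second exchange factor of this family, read 318, 324, 702 and 430 in the arrays labelled Trib1 hi, against 269, 253, 224 and 289 in the arrays labelled Trib1 null. Each array labelled Trib1 hi exceeded all of the others, but 7 of the 8 values lie below 500. The means were 444 ± 180 and 259 ± 27.1 (SD, n = 4 each), and the log2 difference of 0.70 had a 95% interval of 0.00155 to 1.40. It missed the threshold (adjusted p = 0.133, limma; exact permutation p = 0.0286, the smallest possible). The values in Trib1 null 1 and Trib1 null 3, 269 and 224, lie below the GC25 readings of those arrays, 334 and 264. Quantile normalization gave 1.496 (adjusted p = 1.31e-06) and cyclic loess 1.17 (adjusted p = 0.00186), whereas a floor of 500 left 0.12 (adjusted p = 0.784) and equal medians turned it to -0.15. Without Trib1 hi 3 the mean was 358 ± 62.8 (n = 3) and the difference 0.45 (adjusted p = 0.0802). The other Rgl1 probe set read 8.19, 7.81, 211 and 6.01 against 119, 6.25, 5.03 and 5.54, highest on the arrays with the highest background control in their groups.

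The 3 genes whose log2 profiles over the 8 arrays, each centred on its own mean, lay closest to that of Rgl1, among 5431 with a group at 500 or above on all its arrays, were Mmachc, Milr1 and Pcgf6, at root mean square distances of 0.151, 0.176 and 0.183. Mmachc, which processes vitamin B12, read 527, 520, 883 and 654 in the arrays labelled Trib1 hi, against 420, 344, 385 and 385 in the arrays labelled Trib1 null. Milr1, an inhibitory receptor of mast cells, averaged 886 ± 211 against 544 ± 63.2, and Pcgf6, a Polycomb group protein, 832 ± 196 against 473 ± 74.9 (SD, n = 4 each). Their choice by likeness to Rgl1 fixed their whole pattern, both the higher values in the arrays labelled Trib1 hi and the peak on Trib1 hi 3. Their group means are therefore no separate evidence on Rgl1. Of the 10 tested genes around Rgl1 on chromosome 1, 6 were higher (6 at an unadjusted p under 0.05) and 0 lower (0 at an unadjusted p under 0.05). Among them Tsen15, a subunit of the tRNA splicing endonuclease, was at least 1.76-fold higher and Npl, which breaks down sialic acid, 1.91-fold. Over the whole chromosome 14.4% were higher and 17.6% lower.

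**Figure D2:**
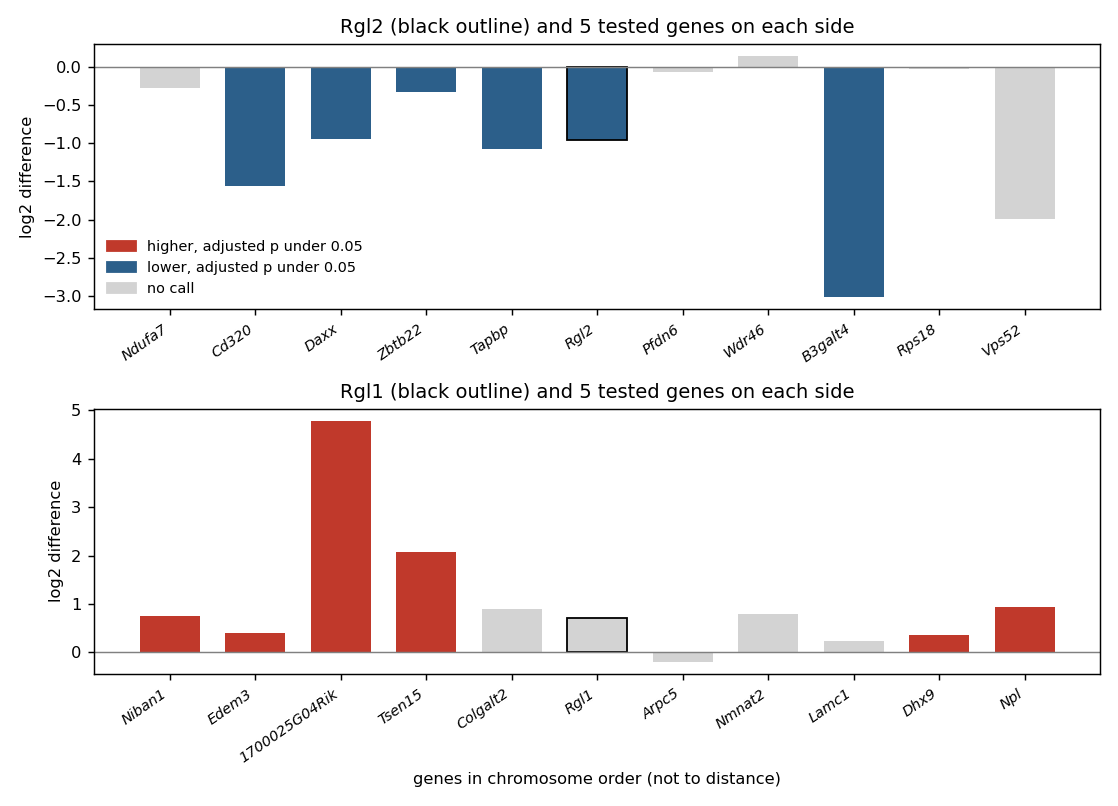
Log2 difference (Trib1 hi minus Trib1 null) of Rgl2 (top) and Rgl1 (bottom), outlined in black, and of the 5 tested genes on each side in chromosome order. Blue bars were lower, red bars higher at an adjusted p under 0.05 and grey bars were not called. Around Rgl2 5 of 10 genes were lower, and around Rgl1 6 of 10 were higher.

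Ralgds, the founding member of that exchange factor family, read 7.09, 6.80, 141 and 5.82 in the arrays labelled Trib1 hi, against 88.2, 5.62, 4.96 and 8.96 in the arrays labelled Trib1 null. In each group the high value is on the array with the highest GC25 reading of that group. The groups overlap and all values lie below 500, so no fold is given (adjusted p = 0.953, limma). The sign turned under 4 alternatives, with -0.80 without Trib1 hi 3.

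Of the Ral proteins, Ralb read 654, 507, 885 and 615 in the arrays labelled Trib1 hi, against 1011, 931, 951 and 1030 in the arrays labelled Trib1 null. The highest array labelled Trib1 hi stayed below the lowest labelled Trib1 null. The means were 665 ± 159 and 981 ± 47.0 (SD, n = 4 each), 1.47-fold lower, with a log2 difference of -0.59 ± 0.16 (SE, adjusted p = 0.00473, limma). The call ended after cyclic loess, with -0.26 (adjusted p = 0.108), without a shared variance (adjusted p = 0.0615) and with equal medians (adjusted p = 0.364).

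Rala read 1078, 1197, 1298 and 1321 in the arrays labelled Trib1 hi, against 1486, 1503, 1541 and 1565 in the arrays labelled Trib1 null. The groups did not overlap, but the gap was small. The means were 1223 ± 110 and 1524 ± 35.95 (SD, n = 4 each), 1.25-fold lower (log2 difference -0.32 ± 0.11, SE, adjusted p = 0.0224, limma). This call ended after cyclic loess, with -0.10 (adjusted p = 0.424), with equal medians (0.512) and with its probe sets averaged (-1.44, adjusted p = 0.0576). It also ended without Trib1 hi 1 (adjusted p = 0.110), Trib1 null 3 (0.0756) or Trib1 null 4 (0.0810). The dap controls at 500 or above on every array differed by -0.68 to -0.50. The Ralb difference lies within that range and the Rala difference is smaller. Tested genes had a median of -0.35 at the brightness of Ralb and -0.08 at that of Rala. The dap range is thus not that of genes of like brightness. The part of either in the result was not tested. The dimmer Rala probe set read 13.1, 12.8, 319 and 52.0 against 395, 191, 231 and 282, below 500 throughout.

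**Figure D3:**
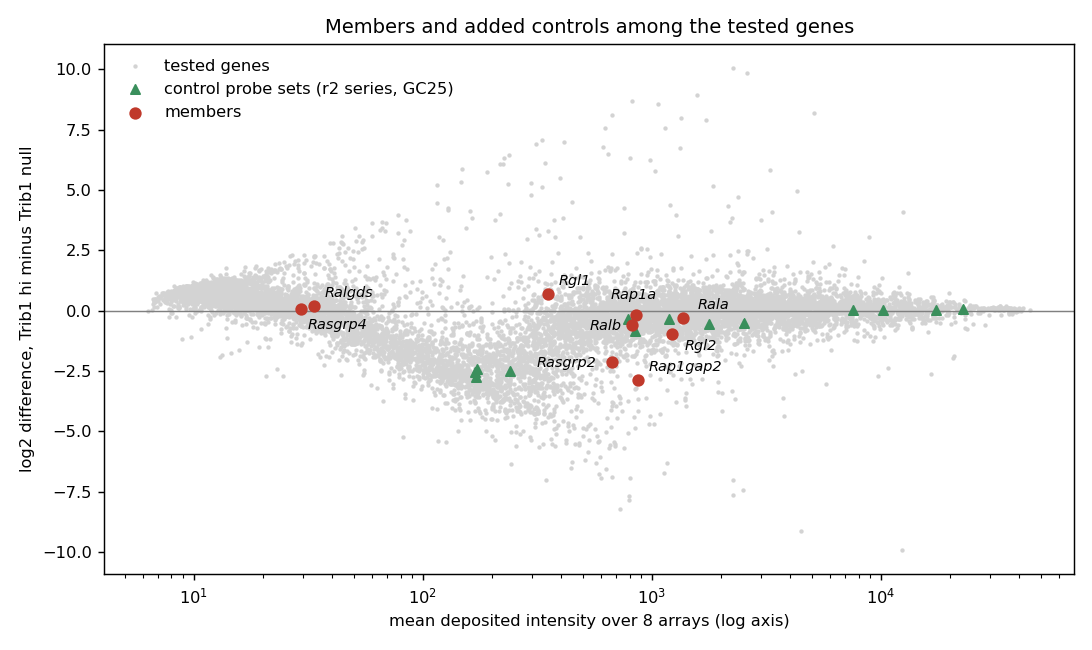
Log2 difference (Trib1 hi minus Trib1 null) against the mean deposited intensity over the 8 arrays (log axis) for 12250 tested genes (grey), the 9 measured members (red circles) and control probe sets of the r2 series and GC25 (green triangles). Most tested genes and the plotted controls lie below 0 between about 100 and 1000. Rala and Ralb lie near the plotted dap and bioC controls, and Rap1gap2 and Rasgrp2 lie below them.

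Rap1gap2, a GAP that returns Rap1 to its inactive state and is known from platelets, showed the largest difference of the group. It read 110, 108, 580 and 226 in the arrays labelled Trib1 hi, against 1491, 1447, 1424 and 1569 in the arrays labelled Trib1 null. The arrays labelled Trib1 null lay close together, and all 4 labelled Trib1 hi lay far below them, 3 of them under 500. The means were 256 ± 223 and 1483 ± 64.2 (SD, n = 4 each), at least 2.85-fold lower. The log2 difference was -2.88 ± 0.31 (SE, adjusted p = 6.50e-09, limma; exact permutation p = 0.0286, the smallest possible). Leaving out Trib1 hi 3 and Trib1 null 1 gave means of 148 ± 67.6 and 1480 ± 78.3 (n = 3 each). The call held under all 18 alternatives, with differences from -3.73 to -1.51 and adjusted p up to 0.0162.

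Rap1a, the Rap1 protein measured, read 721, 656, 978 and 823 in the arrays labelled Trib1 hi, against 1026, 728, 944 and 921 in the arrays labelled Trib1 null. The groups overlap, and the log2 difference was -0.19 with a 95% interval of -0.51 to 0.13 (adjusted p = 0.437, limma). Its sign turned after quantile normalization, with 0.06, and after cyclic loess, with 0.13. A change of the size seen for Rap1gap2 lies outside that interval.

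Rasgrp2, also called CalDAG-GEFI, an exchange factor that switches Rap1 on in platelets and neutrophils, read 177, 89.3, 604 and 338 in the arrays labelled Trib1 hi, against 1101, 1010, 989 and 1069 in the arrays labelled Trib1 null. All arrays labelled Trib1 hi were lower, 3 of them under 500. The means were 302 ± 226 and 1042 ± 52.0 (SD, n = 4 each), at least 1.98-fold lower. The log2 difference was -2.11 ± 0.33 (SE, adjusted p = 5.36e-06, limma), -1.30 after quantile normalization and -1.70 after cyclic loess (adjusted p = 0.00158). With a floor of 500 it was -0.99. The call ended with its probe sets averaged (-1.05, adjusted p = 0.420), the other of which read 23.8 or less on every array, and without a shared variance (0.0548). Around it on chromosome 19, 3 of 10 tested genes were lower and 2 higher.

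Because Rasgrp2 is known from platelets and neutrophils and Rap1gap2 from platelets, markers of those cells are given beside them. Of 5 tested megakaryocyte and platelet markers, 0 were called by limma (0 at an unadjusted p under 0.05), and 5 of the 6 measured lay below 500 on every array, among them Pf4 at 54.4 ± 93.5 against 7.98 ± 7.93. Of 8 mature neutrophil markers, 4 were lower with Trib1 hi and 0 higher (0 at an unadjusted p under 0.05), and their summed signal ran from 25350 to 36400 against 97620 to 121500. S100a8, Ngp, S100a9 and Lcn2 were the lower ones, and Ltf, Camp, Mmp8 and Mmp9 lay below 500 on every array. The part of these markers in the Rasgrp2 and Rap1gap2 differences was not tested.

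Rasgrp4, an exchange factor for Ras known from mast cells and myeloid leukaemia, read 7.11, 8.31, 117 and 5.98 in the arrays labelled Trib1 hi, against 72.8, 6.34, 7.41 and 10.4 in the arrays labelled Trib1 null. It stayed near the bottom of the scale in both groups (adjusted p = 0.982, limma), and its sign turned under 6 of the alternatives. Of 7 mast cell and basophil markers tested, 2 were higher, Cpa3 and Gata2, and 1 lower, Mcpt8. The tryptases Tpsb2 and Tpsab1 and the receptor chains Fcer1a and Ms4a2 lay below 500 on every array.

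**Figure D4:**
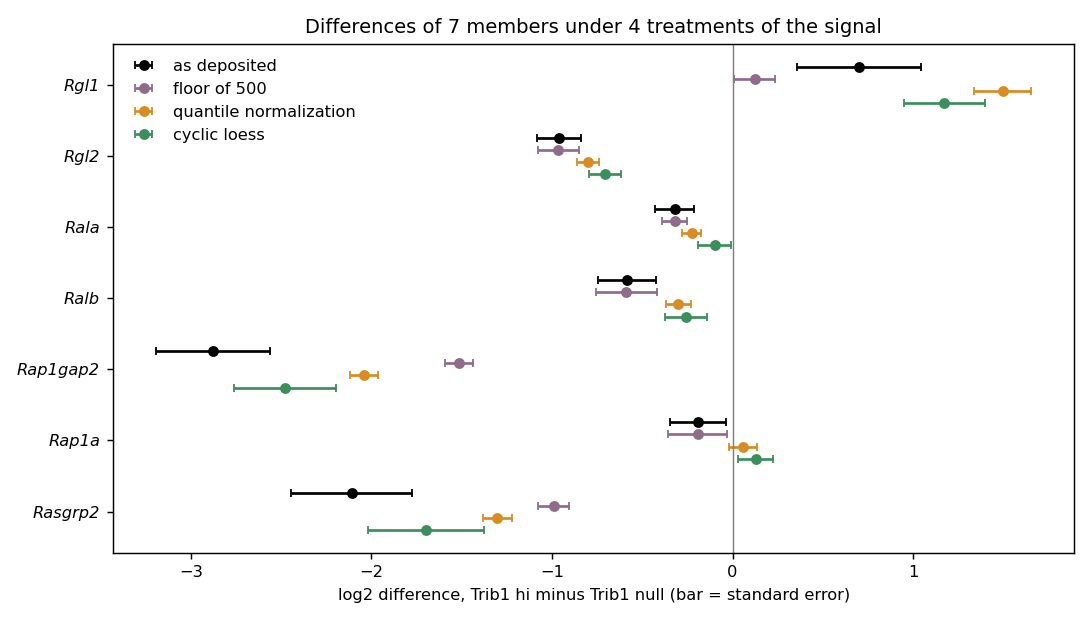
Log2 difference (Trib1 hi minus Trib1 null) with its standard error for all measured members other than Ralgds and Rasgrp4, from the values as deposited, with a floor of 500, after quantile normalization and after cyclic loess. Rgl2, Rap1gap2 and Rasgrp2 stay below 0 in all 4. Rala and Ralb come closer to 0, Rap1a changes sign and Rgl1 ranges from 0.12 to 1.496.

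The rest of the network was described from 8 lists of 79 genes, of which 60 were tested. Of these, 21 were lower and 4 higher, with a median log2 difference of -0.15 against 0.04 over all tested genes. These counts and those of each list below stand against 19.7% lower and 11.1% higher over all tested genes, and 39.3% and 19.6% among those with a mean signal from 500 to below 2000. Setting the array medians equal ended every lower call named below except those of Sipa1 and Rras. These medians lie far below 500, so that setting scales arrays by dim signals.

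Among other Ral regulators, 2 of 4 tested were lower and 0 higher (0 at an unadjusted p under 0.05). Ralgapb, the shared subunit of the complexes that switch Ral off, averaged 524 ± 140 against 850 ± 62.6 (at least 1.52-fold lower, adjusted p = 0.00237, limma). Ralgapa1, a catalytic subunit, fell 1.21-fold (2716 ± 344 against 3286 ± 75.4), a call that ended under 7 alternatives and turned with the mean of its probe sets. Of 12 Ral effectors tested, 5 were lower and 1 higher. Exoc2, the exocyst subunit Sec5 that binds active Ral, read 1102, 1084, 1260 and 1225 in the arrays labelled Trib1 hi, against 2557, 3002, 2487 and 2663 in the arrays labelled Trib1 null. It was 2.29-fold lower (log2 difference -1.19 ± 0.10, SE, adjusted p = 2.44e-11, limma), a call lost with equal medians (adjusted p = 0.201). Another exocyst subunit, Exoc4, fell 1.27-fold (1943 ± 131 against 2460 ± 143), a call that ended after cyclic loess (adjusted p = 0.0671) and with its probe sets averaged (0.628). Reps1, an EH domain protein of endocytosis, rose 1.25-fold (adjusted p = 0.0359), a call that ended under 9 alternatives and turned with equal medians.

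Among Rap exchange factors and GAPs, 4 of 9 tested were lower and 1 higher. Sipa1, a Rap1 GAP of blood cells, averaged 162 ± 196 against 692 ± 33.4 (at least 1.39-fold lower, adjusted p = 0.000354, limma). Its relative Sipa1l1 fell 1.57-fold (702 ± 55.3 against 1101 ± 154). Rapgef2, an exchange factor for Rap1, rose 1.28-fold (2432 ± 213 against 1893 ± 95.8), with its sign turned by equal medians. The Sipa1 call ended without a shared variance (adjusted p = 0.110), and the Sipa1l1 call with its probe sets averaged (-0.29, adjusted p = 0.806) and after cyclic loess (0.0794).

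Of 11 Rap relatives and effectors tested, 5 were lower and 1 higher. Rap2a, a Rap protein of another branch, read 410, 297, 743 and 472 in the arrays labelled Trib1 hi, against 1216, 1221, 1233 and 1187 in the arrays labelled Trib1 null. It was at least 2.16-fold lower (adjusted p = 4.27e-07, limma), a call lost with its probe sets averaged (-0.30, adjusted p = 0.840). Rassf5, which carries active Rap1 to integrins, fell 1.46-fold (3785 ± 410 against 5507 ± 359), and Tln1, talin, which opens integrins, 1.28-fold. The Tln1 call ended under 3 alternatives and its sign turned with the mean of its probe sets.

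Ras proteins themselves showed 1 lower of 5 tested and 0 higher (0 at an unadjusted p under 0.05). Rras, a Ras relative that promotes integrin adhesion, read 17.9, 12.96, 486 and 153 in the arrays labelled Trib1 hi, against 1117, 918, 982 and 964 in the arrays labelled Trib1 null (at least 1.99-fold lower, adjusted p = 2.07e-05, limma; 0.0780 without a shared variance). Of 5 Ras exchange factors tested, 1 was higher and 0 lower (0 at an unadjusted p under 0.05): Sos2, which couples receptors to Ras, rose 1.45-fold (3242 ± 315 against 2238 ± 161, adjusted p = 4.07e-05), turned by equal medians. Of 7 Ras GAPs tested, 2 were lower and 0 higher (1 at an unadjusted p under 0.05). Rasal3, a Ras GAP of blood cells that also lies on chromosome 17, was at least 2.11-fold lower (547 ± 193 against 1229 ± 26.6), and Rasa3, which acts on Rap1 as well as Ras, fell 1.29-fold. Among 7 tested genes that make or use up diacylglycerol, 2 were lower and 0 higher (0 at an unadjusted p under 0.05). Dgka, a diacylglycerol kinase, which uses diacylglycerol up, was 1.53-fold lower (1118 ± 140 against 1708 ± 55.7). The other, Plcb2, lay below 500 on every array.

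**Figure D5:**
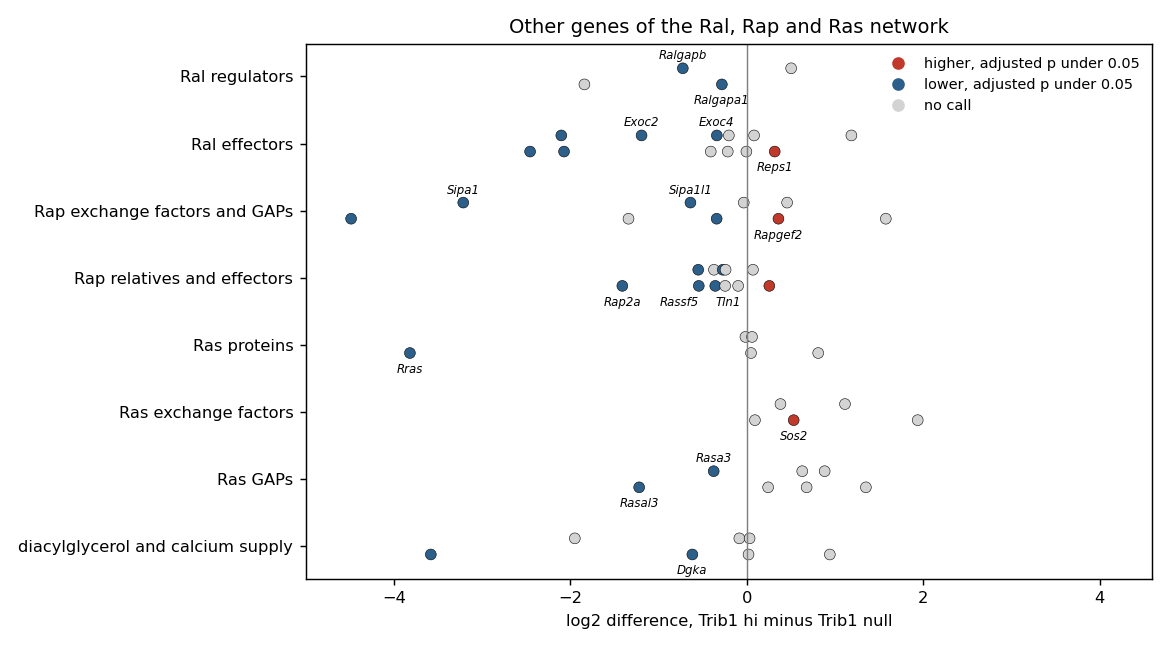
Log2 difference (Trib1 hi minus Trib1 null) of the 60 tested genes of 8 lists around Ral, Rap and Ras. The list labelled diacylglycerol and calcium supply also holds kinases that use diacylglycerol up. Blue points were lower and red points higher at an adjusted p under 0.05, grey points were not called, and the genes described in the text are named. The lists hold 21 lower and 4 higher calls, where all tested genes hold 2409 and 1363 (3352 and 3357 after quantile normalization).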

How the data were processed

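Total RNA of 8 samples was hybridised to Affymetrix mouse arrays from 100 ng input, per the labels' protocols. The authors deposited linear MAS5 intensities, per the submitters' processing notes. Version, parameters, scan dates and genome build are not stated there. Of 45141 probe sets, 28898 had 1 gene symbol in the platform annotation, 551 had several, 15588 had none listed and 104 were controls. RefSeq GRCm38.p6 gave chromosome and gene order for all 9 measured genes.

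Intensities were tested as log2(intensity + 2.71), the 25th percentile of all values, which narrows differences of the dimmest signals. It leaves in differences of background below 500. For Rap1gap2, Rasgrp2 and Rgl1, each with arrays below 500, a floor of 500 took the differences from -2.88, -2.11 and 0.70 to -1.51, -0.99 and 0.12. Genes whose mean log2 passed 3.01, the 40th percentile, were tested with limma 3.58.1 in R 4.3.3 (lmFit, eBayes with trend, two-sided), adjusted over 12250 genes. Adjusted p of the main results come from that fit. Each alternative had its own fit and adjustment, and the one without a shared variance used an ordinary t-test in place of eBayes. Folds use means of signals with a floor of 500, written "at least" where an array of the lower group lay below it. The code was tested on simulated data. The members, lists and the floor were chosen with earlier results of these data known. Named genes are all members and, per list, up to 3 with the largest called difference, no overlap and a higher group at 500 or above on all arrays. Alternatives changed normalization, pseudocount, floor, filter, probe set rule, variance, replicate block and arrays. The 4 arrays per group limit precision.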

Additional observations from a re-analysis of the deposited data

Results flagged for a closer look

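In 50 groups of 4 values, 8 held an array far from the other 3. Chance gives about 1 in 20 for independent groups. These groups share the same arrays, so a shift of 1 array is counted many times and that rate does not apply. Trib1 hi 3 was the high array for Rgl2, at 1037 against 751 to 798 on the others of its group, for Ralgds (141 against 5.82 to 7.09), for Rasgrp4 (117 against 5.98 to 8.31) and for Rasal3 (835 against 433 to 485). It was the low array for Exoc4 (1747 against 1999 to 2024). Trib1 null 1 was the high array for Ralgds (88.2 against 4.96 to 8.96) and Rasgrp4 (72.8 against 6.34 to 10.4). Trib1 hi 1 was the high array for Tln1 (1404 against 1127 to 1171). Trib1 hi 3 and Trib1 null 1 had the highest background control of their groups, 379 and 334, and 8 of the 9 members read highest of their group on Trib1 hi 3. Their part in these values was not tested.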

How the results depend on the processing

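Over 18 alternatives, 135 of the 162 member results kept direction and side of the threshold. The count of members called lower, 5, was 4 to 5 when 1 array was left out, and fell to 2 with equal medians and to 3 with the mean of probe sets, without a shared variance and after cyclic loess, an alternative chosen after seeing the data. The count called higher, 0, became 1, Rgl1, after quantile normalization and after cyclic loess. Over all tested genes, 1363 higher became 3357 with quantile normalization, 175 with equal medians, 725 with the mean of probe sets, 2698 without Trib1 hi 3 and Trib1 null 1 together and 2178 after cyclic loess, and 1153 to 2103 when 1 array was left out. The 2409 lower became 1595 with a floor of 500, 1317 with the mean of probe sets, 1379 without a shared variance and 3903 without Trib1 hi 3 and Trib1 null 1 together, and 1964 to 3768 when 1 array was left out, the highest of both ranges without Trib1 hi 3. Equal medians, which scale the arrays by signals far below 500, moved the median of all tested genes to -0.79 from 0.04. Signs turned as follows, with causes not tested. Equal medians gave -0.15 for Rgl1, -0.58 for Ralgds, -0.70 for Rasgrp4, -0.54 for Reps1, -0.50 for Rapgef2 and -0.33 for Sos2. Rap1a was 0.059 after quantile normalization and 0.13 after cyclic loess. The mean of probe sets gave 0.33 for Ralgapa1 and 0.18 for Tln1. Leaving out 1 array gave -0.80 to 1.02 for Ralgds and -0.83 to 0.78 for Rasgrp4, which was -0.12 without Trib1 hi 3 and Trib1 null 1 together. The replicate numbers did not pair the arrays (same-number correlations of -0.51, 0.49, -0.29 and 0.37). The fit with the replicate block called 5 members lower and 0 higher, and 1284 and 2346 of all genes higher and lower, and of the named genes only Reps1 lost its call (adjusted p = 0.0556). Values below 500 limit Rgl1, Ralgds and Rasgrp4. They also limit the size of the Rap1gap2 and Rasgrp2 differences, which were -1.51 and -0.99 with a floor of 500.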
